A study of Homo sapiens with 42 samples.

Results

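The cytosolic ribosomal protein genes were taken as the protein-coding genes whose symbol follows the RPL, RPS, RPLP or RPSA pattern, and 85 of the 58243 gene IDs in the count tables met this rule. They comprised 43 genes of the large subunit, 31 of the small subunit, the 3 acidic stalk genes RPLP0, RPLP1 and RPLP2, and 8 paralogues, which are further copies of a ribosomal protein gene at another place in the genome (RPL3L, RPL7L1, RPL10L, RPL22L1, RPL26L1, RPL36AL, RPL39L and RPS27L). Counts of read pairs per gene were available for 42 libraries of K562, an established human line of chronic myeloid leukaemia cells that carry the BCR-ABL1 kinase. Poly(A) mRNA of whole cells was sequenced in 9 groups: untreated cells (CTRL), cells given 1 μM imatinib (IM), which inhibits BCR-ABL1, for 1, 6 or 18 h, cells given 5 μM JTE-607 (JTE), an inhibitor of the nuclease CPSF73 that cuts pre-mRNA at its 3′ end, for 1, 6 or 18 h, and cells given 110 mM KCl, an osmotic stress, for 1 or 3 h. Nuclear RNA depleted of ribosomal RNA was sequenced in 5 groups (CTRL, IM 1h, IM 18h, JTE 1h and KCl 1h). Each group had 3 biological replicates of this single cell line, and no group combined treatments.

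Each ribosome is built from 1 copy of nearly every ribosomal protein, so their mRNAs are made in near-equal need and rank among the most abundant of a growing cell. Most of these mRNAs begin with a C followed by a run of pyrimidines, the 5′ terminal oligopyrimidine (TOP) motif, through which mTORC1 and the RNA-binding protein LARP1 control their translation and stability. In erythroid cells, the lineage K562 resembles, mutations of genes such as RPS19, RPL5 and RPL11 cause Diamond-Blackfan anaemia, and loss of RPS14 is linked to the anaemia of 5q- syndrome.

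Library totals lay between 16439848 and 22505595 counts in mRNA, except KCl 1h replicates 2 and 3 with 62953314 and 42474454, and between 16175394 and 25103205 in nuclear RNA. After the filter on low counts, 83 of the 85 members were tested among 18095 genes in mRNA and 84 among 21929 genes in nuclear RNA. The erythroid factor GATA1 stood at 148 to 194 CPM (counts per 1000000 counts of a library, with edgeR's TMM scaling) in mRNA CTRL, MS4A1 of B cells and KRT5 of epithelia were at 0, and MALAT1, a nuclear non-coding RNA, stood at 2653 to 2677 CPM in mRNA CTRL and at 10077 to 15511 CPM in nuclear CTRL. The epithelial marker EPCAM was also present, at 86.8 to 95.1 CPM in mRNA CTRL. A gene counted as called when its log2 fold change in edgeR exceeded 0.6 in either direction with an adjusted p (Benjamini-Hochberg, over all genes tested) below 0.05, and is described as higher, lower, risen or fallen on the adjusted p alone. Because few members passed the fold threshold, both counts are given with the share of all tested genes that passed the same rule.

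The starts of the genes carry the sequence feature that sets this family apart. Of the 85 members, 68 were found by symbol in a RefSeq promoter table on GRCh38.p14, each with the 250 bases before and 50 after the transcript start. A C at the start followed by at least 4 pyrimidines was present in 43 of 68 (63.2%), against 4.04% of all 27305 promoters, and a run of at least 8 pyrimidines within 10 bases of the start in 53 (77.9%), against 15.4%. Among the matched members other than paralogues 42 of 62 had the TOP start, and among the 6 matched paralogues only RPL22L1 had it. The word CCGGAAG, an ETS-type core, was found on either strand of 23 member promoters (33.8%) against 10.7% of all promoters, AAGATGG, a YY1-type core, in 9 (13.2%) against 6.06%, and TATAAA in the 50 bases before the start in 4 (5.88%) against 2.92%. The windows printed here run from 20 bases before to 20 bases from the annotated start and show the members on which the results turn, in lower case with the longest pyrimidine run near the start in capitals. The first 6 are members of the main block of genes and the others are paralogues and parents of paralogues (RPL39L and RPL7 were not matched).
RPS18, chr6:33272055-33272094, plus strand: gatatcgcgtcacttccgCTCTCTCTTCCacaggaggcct
RPLP0, chr12:120201092-120201131, minus strand: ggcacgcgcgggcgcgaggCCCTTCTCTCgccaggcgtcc
RPS12, chr6:132814549-132814588, plus strand: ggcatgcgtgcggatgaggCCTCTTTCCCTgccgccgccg
RPS19, chr19:41860235-41860274, plus strand: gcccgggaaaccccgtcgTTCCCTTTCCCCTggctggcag
RPS23, chr5:82278335-82278374, minus strand: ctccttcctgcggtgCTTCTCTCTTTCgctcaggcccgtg
RPS26, chr12:56041898-56041937, plus strand: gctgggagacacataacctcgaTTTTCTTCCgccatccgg
RPL22, chr1:6199576-6199615, minus strand: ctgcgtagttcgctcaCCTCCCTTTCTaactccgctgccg
RPL22L1, chr3:170870176-170870215, minus strand: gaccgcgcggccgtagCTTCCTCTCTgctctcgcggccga
RPL26, chr17:8383174-8383213, minus strand: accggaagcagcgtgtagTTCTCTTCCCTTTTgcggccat
RPL26L1, chr5:172958709-172958748, plus strand: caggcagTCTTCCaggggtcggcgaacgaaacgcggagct
RPL39, chrX:119791611-119791650, minus strand: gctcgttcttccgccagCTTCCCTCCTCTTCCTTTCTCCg
RPL7L1, chr6:42879596-42879635, plus strand: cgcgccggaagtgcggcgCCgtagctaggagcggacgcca
RPS27, chr1:153990742-153990781, plus strand: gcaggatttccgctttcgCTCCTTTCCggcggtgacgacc
RPS27L, chr15:63157458-63157497, minus strand: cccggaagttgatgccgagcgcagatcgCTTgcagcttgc
The parents RPL22, RPL26, RPL39 and RPS27 had runs of 9 to 22 pyrimidines at the start, while RPL26L1, RPL7L1 and RPS27L began with a G and had no pyrimidine at the start itself. RPS26 also began with a G, its run of 9 pyrimidines starting a few bases downstream.

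Levels in untreated cells, per kilobase of the annotated canonical transcript, spanned more than 2 orders of magnitude. The low end was made of paralogues and of RPL17, RPL36A and RPS10, and apart from these the lowest in mRNA CTRL was RPL26 at 96.2 ± 6.18 CPM per kb. RPS18 of the small-subunit head (ENSG00000231500, 33272010 to 33276510 on chromosome 6) was the highest in mRNA CTRL at 2892 ± 125 CPM per kb (SD, n = 3), followed by RPS24 at 2387 ± 78.1 and by RPLP0, the base of the stalk, at 1909 ± 29.3. RPS27 and RPS2 stood at 1828 and 1815 CPM per kb. The lowest of the 83 members above 1 CPM were RPL22L1 at 17.0 ± 2.23, RPL17 at 11.5 ± 1.20, RPS27L at 7.22 ± 0.730 and RPS10 at 6.87 ± 1.56 CPM per kb. Of the 82 pairs of neighbours in this order, 21 did not overlap between their 3 libraries in mRNA CTRL and 11 did not in nuclear CTRL, so most neighbours did not differ beyond their spread. The order among highly expressed members therefore rested on small steps, and it also rests on the canonical transcript length, which was 6110 bases for RPS27L and 7573 bases for RPL37. In nuclear CTRL, RPS18 was again the highest at 2484 ± 171 CPM per kb, and RPS27L the lowest member above 1 CPM at 4.46 ± 0.132.

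**Figure D1:**
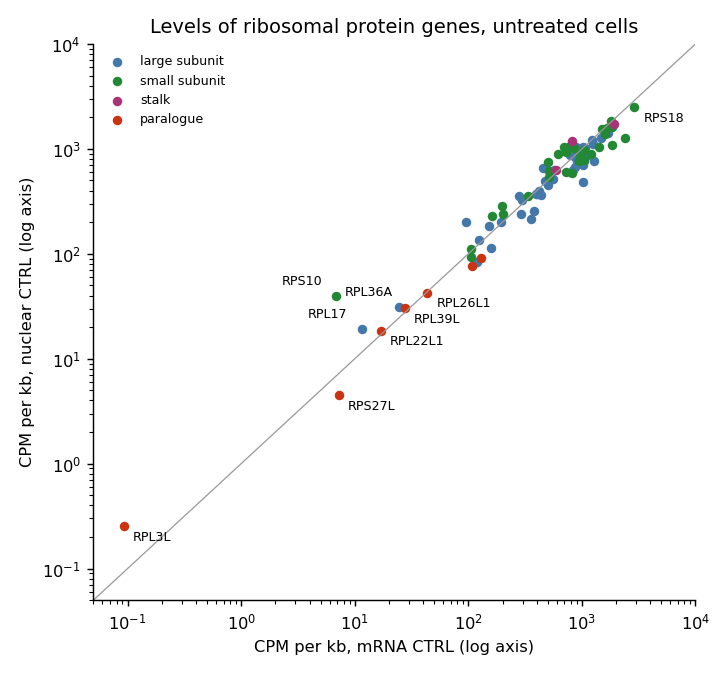
Levels of the members in untreated cells, in CPM per kilobase of the canonical transcript, mRNA CTRL on the horizontal and nuclear CTRL on the vertical log axis; each point is the mean of 3 libraries. RPS18 is the highest in both fractions, at 2892 and 2484 CPM per kb, and most paralogues with RPL17, RPL36A and RPS10 form the low tail.

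Sequence copies limit what these levels mean. Annotation lists 1599 pseudogenes named after 78 of the 85 members, and only read pairs that align to a single place were counted, so pairs shared with a processed pseudogene were lost. The exons of 51 members overlap those of another gene and 28 members host 60 small nucleolar RNAs in their introns. RPL17, RPL36A and RPS10 stood out at 11.5, 24.5 and 6.87 CPM per kb in mRNA CTRL. These 3 large- and small-subunit genes lie inside annotated readthrough genes (RPL17-C18orf32, RPL36A-HNRNPH2 and RPS10-NUDT3), with which they share 35.3%, 8.40% and 44.6% of their exon bases by GENCODE 44 (for RPL17 together with other overlapping genes). The counting did not assign pairs over exons of more than 1 gene of its own annotation, whose release was not given. The readthrough genes themselves had 0 CPM in all 6 CTRL libraries. Whether the shared exons account for the low levels of RPL17, RPL36A and RPS10 was not tested.

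The family took 5.68 to 5.93% of all counted read pairs in mRNA CTRL and 4.88 to 5.44% in nuclear CTRL. The share was highest after 3 h of KCl, at 6.73 to 7.09%, and stood at 5.81 to 6.08% after 1 h. With imatinib it was 5.54 to 6.04% at 1 h, 5.85 to 6.35% at 6 h and 6.25 to 6.70% at 18 h. With JTE-607 it was 5.99 to 6.21% at 1 h and 6.16 to 6.67% at 6 h, and at 18 h it was 5.55 to 5.85%. Every library of KCl 3h, IM 18h, JTE 1h and JTE 6h was above every CTRL library, and the JTE 18h libraries overlapped with CTRL. In nuclear RNA only IM 18h, at 5.77 to 5.92%, did not overlap with CTRL. Mitochondrial mRNAs, another large class, moved at the same time: their share was 8.56 to 9.27% in mRNA CTRL, 4.60 to 5.83% in KCl 3h and 10.2 to 10.4% in IM 18h. When they were left out, the family took 6.31 to 6.65% of the remaining counts in CTRL, 7.14 to 7.64% in KCl 3h and 7.15 to 7.67% in IM 18h, still without overlap. Shares do not tell whether the family rose or the rest of the RNA fell, since no spike-in is part of the counts.

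**Figure D2:**
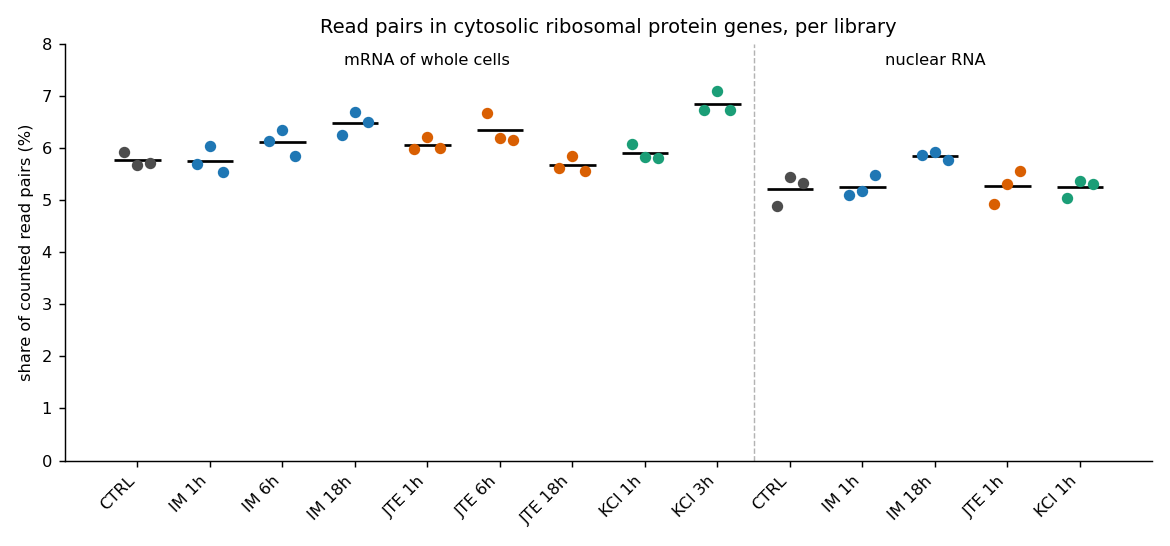
Share of counted read pairs that fell in the 85 members (percent, vertical axis from 0), 1 point per library, by group. The 3 KCl 3h libraries, at 6.73 to 7.09%, are above all mRNA CTRL libraries, at 5.68 to 5.93%, and the JTE 18h libraries, at 5.55 to 5.85%, overlap with CTRL.

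After 3 h of KCl the family was higher nearly as a whole and by nearly the same factor: 60 of 83 members were higher and 3 lower by edgeR at the adjusted p alone, against 6.82% of all genes higher and 9.03% lower. The median log2 fold change was 0.272, with the middle 50% of members within 0.055, while the median of all genes was 0.024 with a spread of 0.509, and the 2135 genes above 100 CPM had a median of 0.097. In 68 members the 3 KCl libraries were all above the 3 CTRL libraries, against 14.5% of all genes. The rise was small, so that the only 3 members called beyond 0.6, against 11.9% of all genes, were the readthrough-embedded RPL36A, RPS10 and RPL17, all lower. DESeq2 gave 63 higher members, while the count was 19 without CTRL replicate 2 or without KCl 3h replicate 2, 20 without CTRL replicate 3 and 35 without KCl 3h replicate 1. It was 8 when only the 2 groups were fitted and 9 without a filter on low counts, with medians of 0.247 and 0.260.

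The stalk genes and the genes with a known disease or signalling role were all among the higher ones. RPLP0 (ENSG00000089157, chromosome 12, 120196686 to 120201235) stood at 2106, 2143 and 2078 CPM in CTRL, 2241, 2074 and 2247 CPM in KCl 1h, and 2605, 2710 and 2658 CPM in KCl 3h. Only the 3 h libraries were separate from CTRL, with a log2 fold change of 0.33 (SE 0.06, edgeR adjusted p 0.000276). Its partners RPLP1 and RPLP2, which form the flexible stalk that recruits elongation factors, changed by 0.37 (SE 0.07, edgeR adjusted p 0.00104) and 0.30 (SE 0.08, edgeR adjusted p 0.012). RPS19, the most often mutated gene of Diamond-Blackfan anaemia, went from 423, 385 and 389 CPM in CTRL to 471, 544 and 470 CPM in KCl 3h (log2 fold change 0.31, edgeR adjusted p 0.014). RPL5 and RPL11, which together with 5S rRNA bind MDM2, changed by 0.27 and 0.23 (edgeR adjusted p 0.00747 and 0.023). RPS6, the classical substrate of S6 kinase, changed by 0.26, RPS14 by 0.27, RPSA, also known as the laminin receptor precursor, by 0.31, RPS27A, made as a fusion with ubiquitin, by 0.29, and RPL41, the shortest ribosomal protein, by 0.31 (edgeR adjusted p from 0.00233 to 0.0443). All 11 of these genes thus moved up by a similar factor. The largest rise, named after its value was seen, was that of RPS12, from 873, 833 and 796 to 1113, 1152 and 1086 CPM, a log2 change of 0.42 (SE 0.07, edgeR adjusted p 0.000203), again with no overlap.

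The increase came between 1 and 3 h. At 1 h of KCl the median was 0.041 (all genes 0.006), and no member was higher by edgeR (3.08% of all genes were), with 4 of 83 at an unadjusted p under 0.05, of which 3 were the lower, called RPL36A, RPS10 and RPL17 (background 5.45%; 3 by DESeq2 as well). From 1 to 3 h the median change was 0.225, with 22 members higher and none lower (1.86% of all genes higher), and the libraries of 59 members did not overlap (8.16%). RPS19, RPLP1, RPL3, RPLP2, RPLP0, RPL10 and RPSA were among them, with log2 changes of 0.35, 0.35, 0.32, 0.30, 0.28, 0.26 and 0.26. Replicate numbers paired these libraries, and with the number as a block the count was 44. The count was 5 without KCl 3h replicate 2, 6 without KCl 1h replicate 2, 9 without KCl 1h replicate 3, 12 without KCl 1h replicate 1 and 13 without KCl 3h replicate 1. It was 38 with upper-quartile scaling, and 0 when only the 2 groups were fitted or with no filter on low counts, while the median stayed between 0.174 and 0.272 over all these fits.

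**Figure D3:**
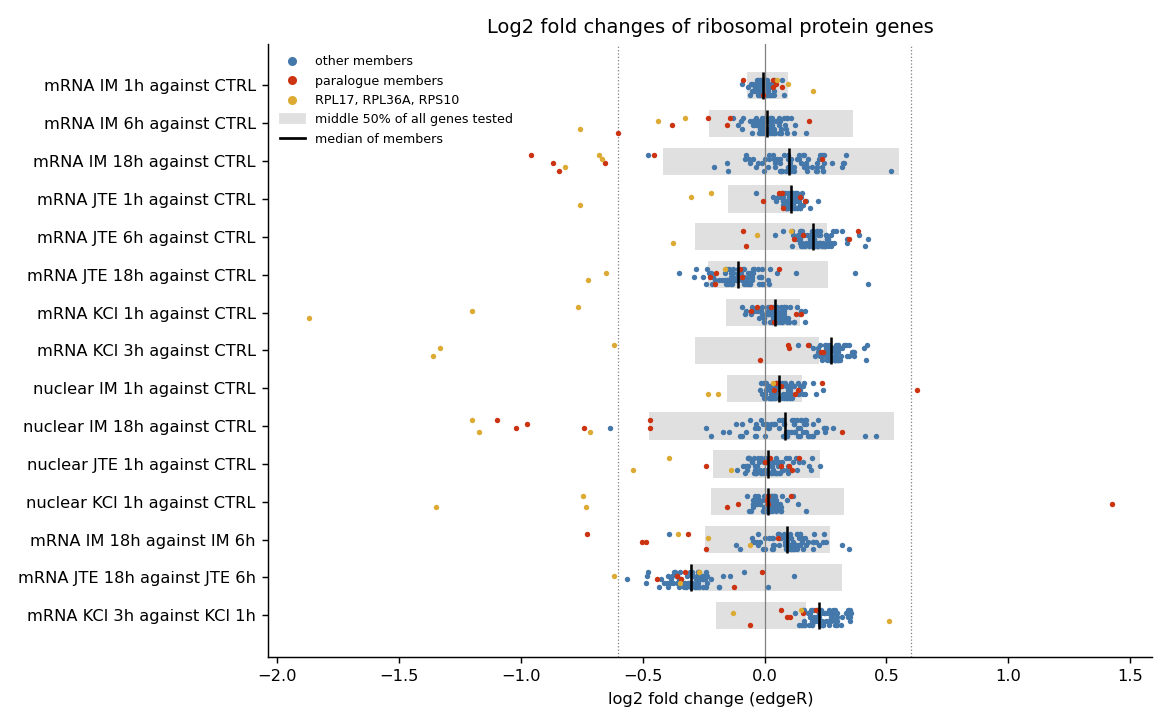
Log2 fold changes (edgeR, horizontal axis) of the members in each comparison with CTRL and between time points; each point is a gene, the vertical tick is the member median, and the bar spans the middle 50% of all genes tested. Members form narrow groups at 0.272 in KCl 3h, 0.200 in JTE 6h and -0.108 in JTE 18h, with the paralogues apart in IM 18h and RPL17, RPL36A and RPS10 apart in most comparisons.

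JTE-607 shifted the family up and then down. The median log2 fold change against CTRL was 0.107 at 1 h, 0.200 at 6 h and -0.108 at 18 h, beside 0.006, 0.026 and -0.011 for all genes and 0.041, 0.059 and -0.076 for genes above 100 CPM. At 1 h none of 83 members was called by edgeR or DESeq2, with 6 at an unadjusted p under 0.05, against 0.851% of all genes called. Still, in 34 members all JTE 1h libraries were above all CTRL libraries, against 4.45% of genes. At 6 h, 32 members were higher and none lower by edgeR (8.90% of all genes higher), and none was called beyond the fold threshold by edgeR or DESeq2, against 13.2% of all genes, although 56 had an unadjusted p under 0.05. The 32 became 5 without CTRL replicate 2, 6 without CTRL replicate 3 and 7 without JTE 6h replicate 1, 3 when only the 2 groups were fitted or without a low-count filter, 14 with counts thinned to equal depth and 51 with upper-quartile scaling. The median was 0.147 to 0.251 across these fits.

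Between 6 and 18 h the family fell. Of 83 members, 62 were lower at 18 h than at 6 h and none was higher by edgeR, against 11.0% of all genes lower, and the median change was -0.303 (all genes -0.040, genes above 100 CPM -0.146). In 71 members every 18 h library was below every 6 h library, against 20.2% of genes. None passed the fold threshold by edgeR or DESeq2 (13.4% of genes did, and 73 members had an unadjusted p under 0.05), and 1 passed it in the fit blocked on the replicate numbers, by which these libraries are paired. The 62 became 29 without JTE 18h replicate 1 and 30 without JTE 18h replicate 3, 29 when only the 2 groups were fitted and 17 without a filter on low counts, with the median between -0.334 and -0.256. RPLP0 stood at 2551, 2303 and 2485 CPM at 6 h and at 1915, 2136 and 1912 CPM at 18 h, with no overlap (log2 change -0.30, SE 0.06, edgeR adjusted p 0.000926). Of the 8 genes with a named role, 7 were lower at 18 h than at 6 h, among them RPL11 (-0.34), RPL5 (-0.32) and RPS6 (-0.27). RPL37, a large-subunit protein named after its values were seen, had the widest swing, from 920, 877 and 902 CPM in CTRL to 1306, 1139 and 1183 CPM at 6 h (0.43, SE 0.07, edgeR adjusted p 6.53e-05) and 830, 802 and 823 CPM at 18 h. Its 18 h libraries were below all of its CTRL libraries, but the fall against CTRL (-0.14) did not pass the test (edgeR adjusted p 0.231).

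RPS19 and RPS23 did not join this fall. RPS19 went from 423, 385 and 389 CPM in CTRL to 394, 473 and 422 CPM at 1 h, 475, 503 and 446 CPM at 6 h and 484.8, 561.8 and 500.2 CPM at 18 h. Its 6 and 18 h libraries were all above CTRL, with log2 fold changes of 0.25 (SE 0.09, edgeR adjusted p 0.0463) and 0.37 (SE 0.09, edgeR adjusted p 0.00812), and the change from 6 to 18 h was 0.12 (SE 0.09, edgeR adjusted p 0.349). RPS23 lies at the decoding centre of the small subunit and was named after its values were seen. It stood at 366, 339 and 334 CPM in CTRL, 500, 444 and 438 CPM at 6 h and 441, 505 and 449 CPM at 18 h, again without overlap (0.41 and 0.42 against CTRL, edgeR adjusted p 0.0018 and 0.00387), and changed by 0.01 between 6 and 18 h (SE 0.09, edgeR adjusted p 0.942). They were the only 2 members higher than CTRL at 18 h (4.54% of all genes were). For RPS19 the difference at 18 h did not pass when CTRL replicate 2, CTRL replicate 3 or JTE 18h replicate 2 was left out, nor without a low-count filter (edgeR adjusted p 0.0518 to 0.0817). The difference between these genes and the other members was not tested. Another 7 members were lower than CTRL at 18 h (RPL10A, RPL12, RPL13, RPL34, RPL36, RPL36A and RPL4, from -0.72 to -0.21), against 4.65% of all genes. These 7 became 0 without JTE 18h replicate 1 or 3, 2 without CTRL replicate 1 or 3, 3 without CTRL replicate 2 and 4 without JTE 18h replicate 2, 1 without a low-count filter, 4 when only the 2 groups were fitted, with thinned counts or with RLE scaling (2 higher and 4 lower), and 2 with upper-quartile scaling (2 higher and 2 lower). Only RPL36A was called beyond the fold threshold (5.39% of all genes).

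**Figure D4:**
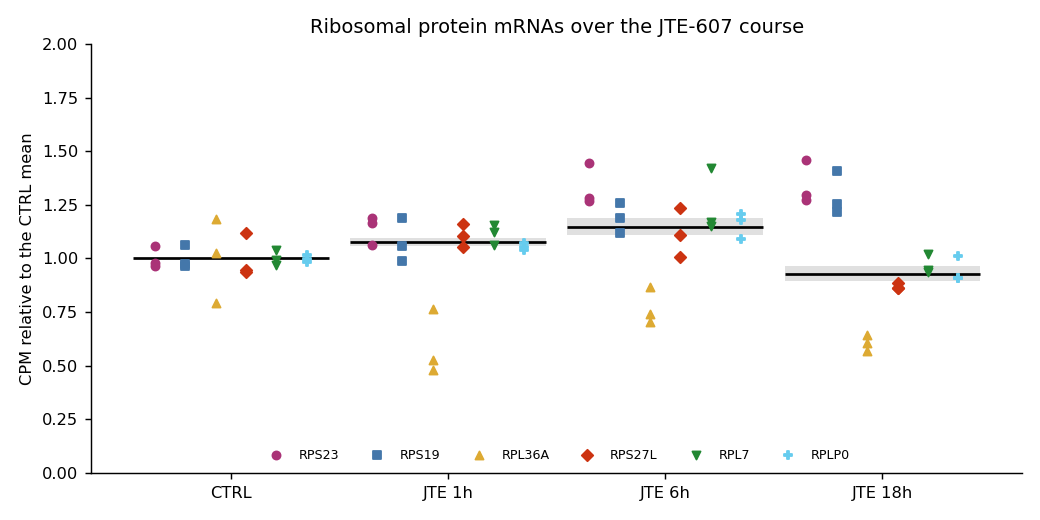
CPM of members over the JTE-607 course, relative to the mean of CTRL (vertical axis from 0, horizontal axis the group). Grey boxes span the middle 50% of members above 1 CPM with their median as a line, and symbols are the 3 libraries of RPS23, RPS19, RPL36A, RPS27L, RPL7 and RPLP0. The box is above 1 at 6 h and below it at 18 h, while RPS19 and RPS23 stay above CTRL at 18 h.

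Imatinib left the family almost unmoved at first. At 1 h the median log2 fold change was -0.005 in mRNA and 0.059 in nuclear RNA, and no member passed an unadjusted p under 0.05 in edgeR or was called by edgeR or DESeq2 in either fraction (0.0166% and 0.0456% of all genes called). At 6 h the median was 0.010, and the 2 called members, RPL7L1 and RPL36A, were lower (9.94% of all genes called). By 18 h, when 30.5% of all tested mRNAs were called, 22 members were higher and 9 lower at the adjusted p alone (22.8% and 21.0% of all genes), and 7 were called, all of them lower (13.2%). The median was 0.101 beside 0.038 for all genes and -0.196 for genes above 100 CPM. The count of higher members was 4 without CTRL replicate 2, 6 without IM 18h replicate 2 and 7 without CTRL replicate 3, 1 without a low-count filter and 12 when only the 2 groups were fitted. With upper-quartile scaling, which raised the median of all genes to 0.109, 37 members were higher and 8 lower, and the member median was 0.172. The erythroid markers changed at the same time, with TAL1, HBG1, HBG2, HBE1 and HBZ called higher, while GATA1 did not pass the test (-0.20, edgeR adjusted p 0.299), and in bulk RNA a change in the share of cells cannot be told apart from a change per cell.

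Among the higher members RPL13A, a large-subunit protein and host of 4 small nucleolar RNAs, was named after its values were seen because its rise was the largest. It stood at 1438, 1469 and 1323 CPM in CTRL and at 1941, 2113 and 2006 CPM in IM 18h, with no overlap (log2 fold change 0.52, SE 0.07, edgeR adjusted p 4.83e-06). RPLP0 went to 2730, 2650 and 2606 CPM (0.34, SE 0.06, edgeR adjusted p 9.16e-05), and RPL3, whose protein lies at the peptidyl transferase centre, from 1285, 1331 and 1234 to 1592, 1634 and 1598 CPM (0.33, SE 0.06, edgeR adjusted p 0.000114). All treated libraries of these genes were above all CTRL libraries. RPS27, RPL10, RPSA and RPL41 were also higher, by 0.32, 0.24, 0.22 and 0.21. RPLP1, RPLP2, RPL5, RPL11, RPS6, RPS14, RPS19 and RPS27A, at 0.04 to 0.17, did not pass the test. The 28 hosts of small nucleolar RNAs had a median of 0.164 and the 55 other tested members 0.064. The 55 include all tested paralogues, since no paralogue hosts such an RNA. A split by sequence gave a median of 0.135 for the 42 tested members other than paralogues that have the TOP start and 0.068 for the 20 without it. In KCl 3h the same split gave 0.285 and 0.275, and in JTE 6h 0.201 and 0.193. In KCl 3h and JTE 6h the medians of this split were thus close, but the split rests on the exact annotated first base. RPS28, RPL10A and RPS26, in the group without this start, have runs of 9, 10 and 9 pyrimidines from base 2, 3 and 3. Of the 62 matched members other than paralogues, 51 had a run of at least 8 pyrimidines within 10 bases of the start. The split therefore does not set members with such a run against members without one, and no difference was tested.

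Outside RPL17, RPL36A and RPS10, the clearest change with imatinib was in the paralogues. Those 3 genes were also called lower at 18 h in both fractions. Without them, 4 of the 7 called members remained in mRNA and 5 of the 8 in nuclear RNA. In nuclear RNA RPL17 and RPL36A changed by -1.20 and -1.17, beyond the -1.10 of RPL39L. The median of the paralogues at 18 h was -0.749 in mRNA over the 6 of 8 that were tested, beside 0.088 for the large and 0.122 for the small subunit. RPL22L1 (ENSG00000163584, chromosome 3, 170864875 to 170870483), the paralogue of the large-subunit gene RPL22, stood at 36.3, 32.8 and 27.9 CPM in mRNA CTRL, 30.0, 27.0 and 17.5 CPM in IM 6h and 15.8, 19.5 and 17.9 CPM in IM 18h. Its 18 h libraries were all below CTRL (log2 fold change -0.87, SE 0.25, edgeR adjusted p 0.00805). In nuclear RNA it went from 33.8, 35.7 and 35.4 to 16.7, 17.9 and 17.1 CPM, with almost no spread within groups (-1.02, SE 0.11, edgeR adjusted p 3.79e-07). Its parent RPL22 went from 749, 710 and 729 to 803, 835 and 799 CPM in mRNA, a change of 0.16 that did not pass the test (edgeR adjusted p 0.0819). RPL22L1 shares the TOP-like start shown above with RPL22.

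RPL39L (ENSG00000163923, chromosome 3, 187120948 to 187180908), paralogue of the exit-tunnel protein RPL39, behaved alike. It stood at 17.9, 19.8 and 22.6 CPM in CTRL, 20.2, 16.4 and 14.7 CPM in IM 6h and 9.83, 10.2 and 10.9 CPM in IM 18h, where no library overlapped with CTRL (-0.96, SE 0.19, edgeR adjusted p 0.00024). The fall came after 6 h, with a change of -0.73 between 6 and 18 h (SE 0.19, edgeR adjusted p 0.019), the only member called between these times (4.41% of all genes, while 6 members and 8.34% of all genes passed the adjusted p alone), though the call was lost when the first IM 6h library or either of IM 18h replicates 1 and 2 was left out. In nuclear RNA it went from 22.9, 23.0 and 20.4 to 9.72, 11.5 and 9.71 CPM (-1.10, SE 0.12, edgeR adjusted p 2.51e-07). It is the only member with a canonical intron over 10000 bases, the longest gap the alignment allowed. Its parent RPL39 had log2 fold changes of 0.16 in mRNA and 0.17 in nuclear RNA that did not pass the test (edgeR adjusted p 0.0751 and 0.134).

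RPL26L1 and RPL7L1 completed the group. RPL26L1 (chromosome 5, 172958729 to 172969771) went from 35.6, 30.1 and 28.4 to 18.9, 19.0 and 21.9 CPM in mRNA (-0.65, SE 0.16, edgeR adjusted p 0.00241) and from 31.9, 30.4 and 29.8 to 16.9, 19.3 and 18.9 CPM in nuclear RNA (-0.74, SE 0.13, edgeR adjusted p 6.52e-05). The mRNA call was lost with upper-quartile scaling, at -0.56, and without CTRL replicate 1. Its parent RPL26 changed by -0.08 and 0.07 (edgeR adjusted p 0.583 and 0.573). RPL7L1 (ENSG00000146223, chromosome 6, 42879618 to 42889925) is a relative of RPL7 known from large-subunit precursors and had the highest CPM of the paralogues. It fell first: 481, 468 and 500 CPM in CTRL were followed by 327, 310 and 318 CPM at 6 h and 238, 282 and 289 CPM at 18 h, each time without overlap. The log2 fold changes were -0.60 (SE 0.08, edgeR adjusted p 1.05e-05) and -0.84 (SE 0.08, edgeR adjusted p 1.67e-08), and -0.24 between 6 and 18 h (edgeR adjusted p 0.0485). The change at 6 h lay at the fold threshold, and its call was lost with upper-quartile scaling, at -0.56. In nuclear RNA 358, 339 and 345 CPM became 157, 200 and 173 CPM (-0.98, SE 0.09, edgeR adjusted p 5.31e-08), and RPL7 itself changed by 0.03 in mRNA and 0.02 in nuclear RNA.

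The other paralogues differed from these 4. RPL36AL, paralogue of RPL36A, fell less, from 94.96, 80.4 and 86.4 to 62.4, 63.4 and 65.0 CPM in mRNA (-0.46, SE 0.14, edgeR adjusted p 0.0126), with no overlap, and its nuclear change of -0.47 did not pass the test (edgeR adjusted p 0.0707). RPS27L, a paralogue of RPS27 known as a p53 target, went the other way, from 41.3, 41.9 and 49.3 to 56.1, 51.7 and 48.1 CPM in mRNA with overlapping libraries (0.24, SE 0.09, edgeR adjusted p 0.0476), and from 27.2, 26.5 and 28.1 to 40.0, 30.6 and 31.4 CPM in nuclear RNA without overlap (0.32, edgeR adjusted p 0.0487). RPS27 changed by 0.32 and 0.41, so the pair moved together. RPL3L, whose mRNA is known from heart and skeletal muscle, and RPL10L, a retrogene known from testis, were close to absent: RPL10L had 11 counts over all 42 libraries and RPL3L 381. RPL3L was counted at 10, 13 and 12 in nuclear CTRL and at 19, 37 and 34 in nuclear KCl 1h, and was called there (log2 fold change 1.43, SE 0.37, edgeR adjusted p 0.0059), at 1.01 to 1.72 CPM.

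Expressed against the parent, 4 paralogues were lower after 18 h of imatinib. For every 100 counts of RPL22 there were 4.43 ± 0.539 counts of RPL22L1 in mRNA CTRL and 2.18 ± 0.191 in IM 18h (SD, n = 3), and in nuclear RNA 7.98 ± 0.508 and 3.52 ± 0.408. For RPL39L and RPL39 the values were 4.98 ± 0.585 and 2.28 ± 0.128 in mRNA and 7.35 ± 0.699 and 3.05 ± 0.353 in nuclear RNA. RPL7L1 went from 38.0 ± 1.68 to 20.7 ± 1.36 counts per 100 of RPL7 in mRNA and from 58.6 ± 4.90 to 30.0 ± 6.61 in nuclear RNA. RPL26L1 went from 61.8 ± 6.32 to 41.9 ± 6.71 per 100 counts of RPL26, and from 29.2 ± 2.47 to 16.6 ± 1.67 in nuclear RNA. The parent RPL26 stood low, at 50.8 CPM in mRNA CTRL against 729 for RPL22 and 1271 for RPL7. Another gene overlaps 14.6% of the exon bases of RPL26, so its counts may be incomplete. In these 4 pairs no library of IM 18h overlapped with CTRL in either fraction, and the exact 2-sided permutation p was 0.1, the smallest that 3 against 3 libraries allow (adjusted 0.322 over 74 such tests). RPS27L stayed at 6.87 ± 0.760 and 6.48 ± 0.618 per 100 counts of RPS27 (exact permutation p 0.6). Counts of different genes depend on length and on lost multi-mapping pairs, so the ratios are comparable between groups but not between pairs. With KCl for 3 h the RPL22L1 and RPL39L ratios were 4.38 ± 1.26 and 4.65 ± 1.30 (exact permutation p 1.0 and 0.7). The RPL7L1 ratio was lower without overlap in other treatments too, at 30.6 ± 1.56 in KCl 3h and 29.3 ± 5.01 in JTE 6h (exact permutation p 0.1 each). RPL36AL went the other way against RPL36A, which has few counts: 476 ± 59.8 per 100 counts in mRNA CTRL became 635 ± 163 in IM 18h (exact permutation p 0.3) and 1752 ± 61.2 in KCl 1h (exact permutation p 0.1), and 264 ± 59.8 in nuclear CTRL became 431 ± 102 in nuclear IM 18h (exact permutation p 0.1).

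**Figure D5:**
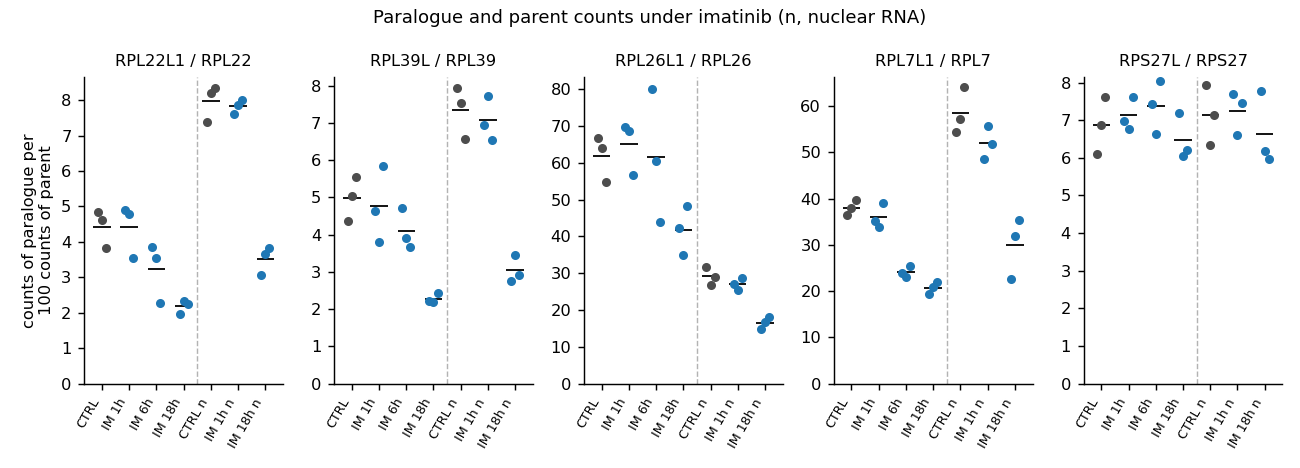
Counts of the paralogue per 100 counts of its parent gene (vertical axis from 0, own scale in each panel) over the imatinib course, 1 point per library, mRNA to the left and nuclear RNA (n) to the right of the dashed line. RPL22L1, RPL39L, RPL26L1 and RPL7L1 are lower in all IM 18h libraries than in CTRL, and RPS27L is not.

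In nuclear RNA the median imatinib response of the family at 18 h was close to that in mRNA, while fewer members were higher. At IM 18h 10 members were higher and 10 lower (22.6% and 23.1% of all genes), 8 were called, all lower (15.4%), and the median was 0.086 (all genes 0.000). The nuclear libraries are paired by replicate number, and a blocked fit gave 20 higher and 12 lower members. With upper-quartile scaling, which put the median of all genes at 0.121, 38 were higher and 8 lower. The higher count was 21 without CTRL replicate 2, 5 without IM 18h replicate 1 or 2, 4 without a low-count filter and 6 when only the 2 groups were fitted. RPL13A, RPS27, RPLP0 and RPL3 were higher in this fraction as well, by 0.46, 0.41, 0.28 and 0.25. RPS26, a small-subunit protein beside the mRNA exit channel, was called in this comparison alone and is named after its values were seen. It stood at 259, 284 and 275 CPM in nuclear CTRL and at 146, 187 and 194 CPM in IM 18h, without overlap (-0.63, SE 0.11, edgeR adjusted p 0.0001). In mRNA its CTRL libraries were wide apart, at 283, 227 and 177 CPM, against 148, 169 and 176 CPM in IM 18h, so that a change of -0.48 (SE 0.27) did not pass the test (edgeR adjusted p 0.158). The nuclear and mRNA responses of RPS26 differed by -0.10 (SE 0.20, edgeR adjusted p of 1), so the data do not separate the fractions. Nuclear libraries also held mitochondrial mRNA, at 4.90 to 6.17% in CTRL and 6.37 to 7.76% in IM 18h, and its part in the result was not tested.

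The difference between the fractions was tested directly for IM 18h, JTE 1h and KCl 1h, and no member passed in any of the 3 comparisons by edgeR or DESeq2 (0.0901%, 0.0605% and 0.668% of all genes called, with 0, 0 and 1 member at an unadjusted p under 0.05). The median nuclear response minus the mRNA response was 0.020 for IM 18h and -0.060 for JTE 1h. For KCl 1h it was -0.127 beside -0.074 for all genes, and 0.009 with upper-quartile scaling, so its sign depends on the scaling. In nuclear JTE 1h and KCl 1h the family as a whole stood where it was in CTRL, with medians of 0.013 in both, and RPL36A was lower in both (-0.54 and -1.35). It was the 1 member lower in nuclear JTE 1h (2.67% of all genes), and in nuclear KCl 1h 4 members were called (23.8% of all genes), namely RPL36A, RPS10 and RPL17, lower, and RPL3L, higher.

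RPL36A, RPS10 and RPL17 had the 3 largest changes among the tested members in mRNA KCl 1h and KCl 3h, all of them down. RPL36A (ENSG00000241343, chromosome X, 101390824 to 101396154) stood at 22.0, 14.8 and 19.1 CPM in mRNA CTRL, at 4.97, 5.66 and 4.58 CPM in KCl 1h and at 4.55, 8.46 and 8.71 CPM in KCl 3h. The KCl libraries were all far below CTRL, with log2 fold changes of -1.87 (SE 0.23, edgeR adjusted p 8.47e-06) and -1.36 (SE 0.23, edgeR adjusted p 0.000124). In nuclear RNA 22.8, 23.7 and 24.3 CPM became 8.27, 10.1 and 9.36 CPM after 1 h of KCl, and the gene was also called in IM 6h, IM 18h, JTE 18h and nuclear IM 18h, at -0.76, -0.82, -0.72 and -1.17. The JTE 18h call was lost without any of 5 of the 6 libraries (CTRL replicate 1 or 3 or any JTE 18h replicate) and with upper-quartile scaling, and the IM 6h call without CTRL replicate 1 or IM 6h replicate 1 or 2.

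RPS10 (chromosome 6, 34417454 to 34426125) showed the same direction at lower counts, from 5.02, 3.20 and 3.90 to 2.12, 1.89 and 1.30 CPM in mRNA KCl 1h (-1.20, SE 0.23, edgeR adjusted p 0.00164, or 0.0518 when only the 2 groups were fitted) and from 21.8, 25.7 and 22.9 to 12.2, 15.5 and 14.5 CPM in nuclear RNA (-0.73, edgeR adjusted p 0.000123). RPL17 went from 7.83, 7.02 and 6.36 to 4.24, 4.24 and 4.0003 CPM in mRNA KCl 1h and from 11.1, 12.5 and 11.7 to 6.88, 7.03 and 7.18 CPM in nuclear RNA, also without overlap (-0.76 and -0.74). In mRNA both RPL17 calls were lost without CTRL replicate 1 or 2, that in KCl 1h without KCl 1h replicate 2 or 3, and that in KCl 3h (-0.62) without KCl 3h replicate 1 or 3, without a low-count filter or when only the 2 groups were fitted. In KCl 3h no other member was lower. These 3 genes share exons with a readthrough gene in the annotation used here for positions. The release used for counting was not given, so whether pairs over those exons were left out is not known. Their counts may therefore not measure the whole mRNA, and the part of those exons in the result was not tested. Without these 3 genes, a setting added after the data were seen, 0 members were called in mRNA KCl 1h and KCl 3h.

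Genes with related functions gave a frame for these shifts. FAU, which encodes a ribosomal protein fused to a ubiquitin-like protein, and RACK1 of the small-subunit head fall outside the symbol rule. Both were higher in KCl 3h, by 0.39 and 0.23 (edgeR adjusted p 0.0152 and 0.0122), and neither passed the test at IM 18h (-0.07 and 0.07, edgeR adjusted p 0.621 and 0.434). Of 15 tested translation factors and other TOP mRNAs, 11 were higher in KCl 3h (median 0.280, 6.82% of all genes higher) and 7 in JTE 6h (0.203, 8.90% of all genes), and 11 were lower in JTE 18h than in JTE 6h (-0.336, 11.0% of all genes). EEF1A1, the elongation factor that brings tRNA to the ribosome, changed by 0.36, 0.25 and -0.34 in these comparisons, and EIF3E by -0.64 between 6 and 18 h of JTE-607, the only one of this list past the fold threshold.

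Chaperones and assembly factors of ribosomal proteins were mostly lower with imatinib. At IM 18h 7 of 8 were lower and 1 higher in mRNA (21.0% and 22.8% of all genes), with a median of -0.883, and 6 were called lower, against 13.2% of all genes (LTV1 -1.89, GRWD1 -1.47, PDCD2L -1.18, HEATR3 -0.99, AAMP -0.78 and BCCIP -0.69), and in nuclear RNA the same 6 were called lower (15.4% of all genes), with a median of -0.985. GRWD1 is known as the chaperone of RPL3 and HEATR3 as that of RPL5, and the mRNAs of these clients changed by 0.33 and 0.10 (edgeR adjusted p 0.000114 and 0.269). In KCl 3h none of the 8 passed the test (median 0.050). In the mTORC1 and LARP1 list 8 of 13 genes were lower and 3 higher at IM 18h, against the same 21.0% and 22.8% of all genes. EIF4EBP1, a translation repressor controlled by mTORC1, changed by -0.89, its relative EIF4EBP2 by 0.77 and LARP4B by -0.72. LARP1 itself did not pass the test (-0.09, edgeR adjusted p 0.498). Of the 13 mitochondrial mRNAs, 10 were lower in KCl 3h (9.03% of all genes), with a median of -0.770, opposite to the cytosolic ribosomal protein mRNAs.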

How the data were processed

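Gene counts of 27 mRNA and 15 nuclear libraries of K562 cells were used. What the authors deposited are unnormalized counts, the number of read pairs per gene: per the study's methods the authors trimmed and deduplicated reads with fastp (without molecular identifiers), aligned them to hg38 with STAR, kept unique alignments with introns of at most 10000 bases, and counted pairs over exons with featureCounts, with no strand option given. Deduplication lowers the counts of highly abundant transcripts, and overlapping or antisense genes cannot be told apart. The annotation release was not given in the sources used here. Positions and biotypes come from GENCODE 44, which holds 57532 of the 58243 IDs. No count column was without a sample. Results on some genes are not reported here.

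Groups and replicate numbers come from the sample titles. Replicates of every group differed beyond sampling noise (chi-square per gene 2.37 to 62.5), so each library counted as 1 replicate. Each fraction was fitted once over its libraries with the robust quasi-likelihood test of edgeR 4.0.16 (R 4.3.3), after filterByExpr and TMM scaling. The common dispersion was 0.0284 in mRNA and 0.0176 in nuclear RNA. Fraction by treatment interactions used 12 libraries each. P-values were adjusted over all genes tested. CPM values use TMM-scaled totals. The fits were tested on simulated data.

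Named genes were every called member where 6 or fewer were called, otherwise the 3 with the largest fall and rise, and fixed names (paralogues, their parents, stalk genes and 8 genes with a known role), the exceptions being stated. The members and lists were chosen with earlier results of these data known. Alternatives were DESeq2 1.42.0, other scalings, no low-count filter, no fold change threshold, thinned counts, fits of 2 groups, members without exon overlap, a replicate block and leaving out each library. Leaving out RPL17, RPL36A and RPS10 was added after seeing the data.

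Deviations of libraries with the same replicate number correlated above 0.1 in every pair for the 4 nuclear comparisons with CTRL (0.235 to 0.891), JTE 18h with 6h (0.112 to 0.322) and KCl 3h with 1h (0.584 to 0.671), so the numbers pair those libraries. In the other comparisons not every pair did. Against mRNA CTRL, replicate 3 of IM 1h, JTE 1h and KCl 1h correlated at 0.877, 0.861 and 0.846, while replicates 1 and 2 were negative. The paper's supplement lists 19031221 mapped reads for CTRL replicate 1 and 18333127 for replicate 2, and the count columns hold these totals the other way round. Whether these 2 numbers were exchanged was not tested, so blocked fits against mRNA CTRL may join the wrong libraries.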

Additional observations from a re-analysis of the deposited data

Results flagged for a closer look

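Effects at 2 time points of the same treatment differed in the edgeR test of that difference. Groups of 3 libraries were not searched for single libraries far from the rest.

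Between 6 and 18 h of imatinib 6 members differed at the adjusted p. Of the named ones RPLP0 and RPL3 were higher at 18 h by 0.25 and 0.20 on the log2 scale, and RPL39L and RPL7L1 changed by -0.73 and -0.24. The others, chosen after their values were seen, were RPL13A, with the largest rise of the 6 at 0.35 (edgeR adjusted p 0.00468), and RPS3 at 0.25. Leaving out an IM 6h library gave a count of 0 (replicate 1) or 3 (replicate 2), and leaving out an IM 18h library gave 1 (replicate 1), 2 (replicate 2) or 4 (replicate 3). DESeq2 gave 12, the fit of these 2 groups alone gave 2, and of the 6 members 4 were higher and 2 lower, against 4 and 1 with RLE and 8 and 1 with upper-quartile scaling.

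Between 6 and 18 h of JTE-607 62 members differed, all of them lower at 18 h. In the stalk, RPLP0, RPLP1 and RPLP2 changed by -0.30, -0.25 and -0.25. Among genes with a known role RPL5 changed by -0.32, RPL11 by -0.34, RPL41 by -0.32, RPS6 by -0.27, RPS14 by -0.30, RPSA by -0.32 and RPS27A by -0.32. Parents of paralogues moved alike, with RPL3 at -0.25, RPL7 at -0.37, RPL10 at -0.28, RPL22 at -0.27, RPL39 at -0.27 and RPS27 at -0.38, and RPS27L was the one paralogue among them, at -0.36.

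Between 1 and 3 h of KCl 22 members differed, all of them higher at 3 h. The named ones were RPS19 (0.35), RPLP1 (0.35), RPL3 (0.32), RPLP2 (0.30), RPLP0 (0.28), RPL10 (0.26) and RPSA (0.26).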

How the results depend on the processing

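Over the alternatives the count of called members and the member median kept their direction in most comparisons. Without a fold change threshold 31 members were called in mRNA IM 18h, 32 in JTE 6h, 9 in JTE 18h, 63 in KCl 3h, 6 between IM 6h and 18h, 62 between JTE 6h and 18h, 22 between KCl 1h and 3h, 20 in nuclear IM 18h and 1 in nuclear JTE 1h. Without RPL17, RPL36A and RPS10 the called counts were 1 in IM 6h, 4 in IM 18h, 0 in JTE 18h, KCl 1h and KCl 3h, 5 in nuclear IM 18h and 1 in nuclear KCl 1h. With upper-quartile scaling they were 1 in IM 6h and 0 in JTE 18h, and the medians were 0.172 in IM 18h, 0.207 in nuclear IM 18h and 0.00850 in the KCl interaction, a change of sign, against -0.0543 with DESeq2 and -0.0544 with RLE scaling. Without a low-count filter the medians were 0.0183 in IM 18h, 0.0510 between IM 6h and 18h and -0.0202 in nuclear KCl 1h, the last reversed, and 1 member was called in JTE 1h. The nuclear KCl 1h median was also reversed, at -0.0332, when only the 2 groups were fitted. Over members without exon overlap the nuclear IM 18h median was 0.0347. The causes were not tested.

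With the replicate number as a block 1 member was called in JTE 1h, 2 in JTE 18h and 1 between JTE 6h and 18h, and the block changed no other count of called members by over 1.5 times. At the adjusted p alone it gave 13 lower members in JTE 18h (7 without it) and 14 between IM 6h and 18h (6 without it). In these mRNA comparisons, other than JTE 6h and 18h, the replicate numbers did not correlate above 0.1 in every pair, so the block is not a known pairing.

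Leaving out 1 library at a time gave 1 to 2 calls in IM 6h, 0 to 1 in JTE 18h, 0 to 2 between IM 6h and 18h and 0 to 1 between JTE 6h and 18h. It gave medians of 0.048 to 0.137 in IM 18h, 0.061 to 0.183 in nuclear IM 18h, -0.052 to 0.044 in nuclear KCl 1h (reversed, at -0.0515, without nuclear CTRL replicate 1) and -0.211 to -0.090 in the KCl interaction. Members with under 10 CPM in mRNA CTRL (RPL17, RPS10, RPL3L and RPL10L) and RPL36A in KCl rest on few counts, and shifts of the whole family near 0.1 are within what another scaling moves.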

Other observations

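Marker lists of other cell types held few measurable genes. The lymphocyte gene CD3D was called lower in mRNA IM 18h and in nuclear IM 18h. Of the 4 epithelial and liver genes, 1 was tested in mRNA, EPCAM, which did not pass the test in mRNA IM 18h, JTE 6h or KCl 3h. Of the 3 nuclear long non-coding RNAs, KCNQ1OT1 was called higher in mRNA IM 18h, mRNA KCl 3h and nuclear IM 18h. NEAT1 stood at 208, 210 and 102 CPM in mRNA CTRL and at 55.3, 51.9 and 21.0 CPM in mRNA KCl 3h, without overlap, but did not pass the test (log2 fold change -2.02, edgeR adjusted p 0.0542), nor did MALAT1 (-0.21, edgeR adjusted p 0.496).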
